A study of Mus musculus with 15 samples.

Results

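The angiopoietin and Tie receptor axis was read from the arrays through 6 genes: the ligands Angpt1, Angpt2 and Angpt4, the receptors Tek (Tie2) and Tie1, and the receptor-type phosphatase Ptprb (VE-PTP). Every probe set that carried 1 of these symbols was taken, whatever its signal, which gave 6 of 18193 genes and 11 of the 45037 probe sets tested. Angpt1, Angpt2 and Angpt4 each had 2 probe sets, Ptprb had 3, and Tek and Tie1 had 1 each. The cells were adult retinal endothelial cells isolated with anti-PECAM beads, and RNA from 5 to 10 mice was pooled for each Affymetrix array. There were 6 wild-type arrays and 3 arrays each for mice without the receptor Frizzled4 (Fz4-/-), without its coreceptor Lrp5 (Lrp5-/-) and without the ligand Norrin (Norrin-). All 4 groups were adult mice of a mixed C57Bl6/129 background, labelled as mixed gender, and no other allele or treatment is named. The labels name no batches, and each array averages over its mice. Signals are log2 values, so a difference of 1 is a 2-fold difference, and the level of a probe set is compared only with itself in other groups.

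Tek is the signalling receptor of the axis. Angpt1, made largely by pericytes and other mural cells, activates it and keeps vessels quiescent, while Angpt2, which endothelial cells store in Weibel-Palade bodies and release, can block or weakly activate it depending on context. Mouse Angpt4, also called Ang3, is a further Tek ligand. Tie1 binds none of these ligands with high affinity and modulates Tek when paired with it, and Ptprb removes phosphate from Tek and from VE-cadherin. Signal from Tek runs through the PI3K and Akt kinases, which keep Foxo1, an activator of Angpt2, out of the nucleus. In retina the axis is known for its part in vessel growth, pericyte coverage and the tightness of the blood barrier.

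The deleted genes were low where the labels put them. Fzd4, which encodes Frizzled4, read 3.98 to 4.56 in Fz4-/- against 11.80 to 12.27 in wild type, and Lrp5 read 4.40 to 5.25 in Lrp5-/- against 7.22 to 7.95. The Norrin- label was not checked in this way. On the second principal component of all probe sets, which held 17.3% of the variance, Lrp5-/- array 1 (117.2), wild-type array 4 (43.1) and Lrp5-/- array 3 (39.0) were highest. At the other end, wild-type arrays 5 (-59.6) and 3 (-51.6) lay farther out than wild-type array 4 and Lrp5-/- array 3. The 3 highest arrays are called outlying below, though only Lrp5-/- array 1 stood far from the rest. Leaving them out leaves 1 Lrp5-/- array. The gap between the 3′ and 5′ actin controls, a sign of RNA quality, was 1.05 to 2.92 in Norrin-, with 2.92 on array 1, against 0.56 to 1.04 on the other arrays. Female Xist signal was low on all 3 Norrin- arrays (4.12 to 4.98), which carried male signal only, and spanned 4.88 to 12.27 in wild type. Genotype and these signals cannot be fully told apart in Norrin-, and calls that change without the 3 outlying arrays, or with these signals in the fit, are given beside the results.

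Angpt2 rose several-fold in all 3 mutants, while Tek, the Angpt1 probe set with clear signal and Ptprb were lower, and Tie1 showed no called change. A probe set was called where limma gave an adjusted p under 0.05 (Benjamini-Hochberg over all 45037 probe sets). Against wild type, 5 of the 11 probe sets were called in Fz4-/- (2 higher, 3 lower), where 12.0% of all probe sets were called (7.70% higher, 4.25% lower). In Lrp5-/- 6 were called (2 higher, 4 lower) against 7.69% of all (3.51% higher, 4.18% lower). In Norrin- 6 were called (3 higher, 3 lower) against 20.5% of all (11.9% higher, 8.57% lower). For the mean of the 3 mutants 7 were called (2 higher, 5 lower) against 17.7% of all, 10.3% of all being higher and 7.41% lower. The 3 comparisons share the same 6 wild-type arrays, so their similar counts are not separate observations.

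**Figure D1:**
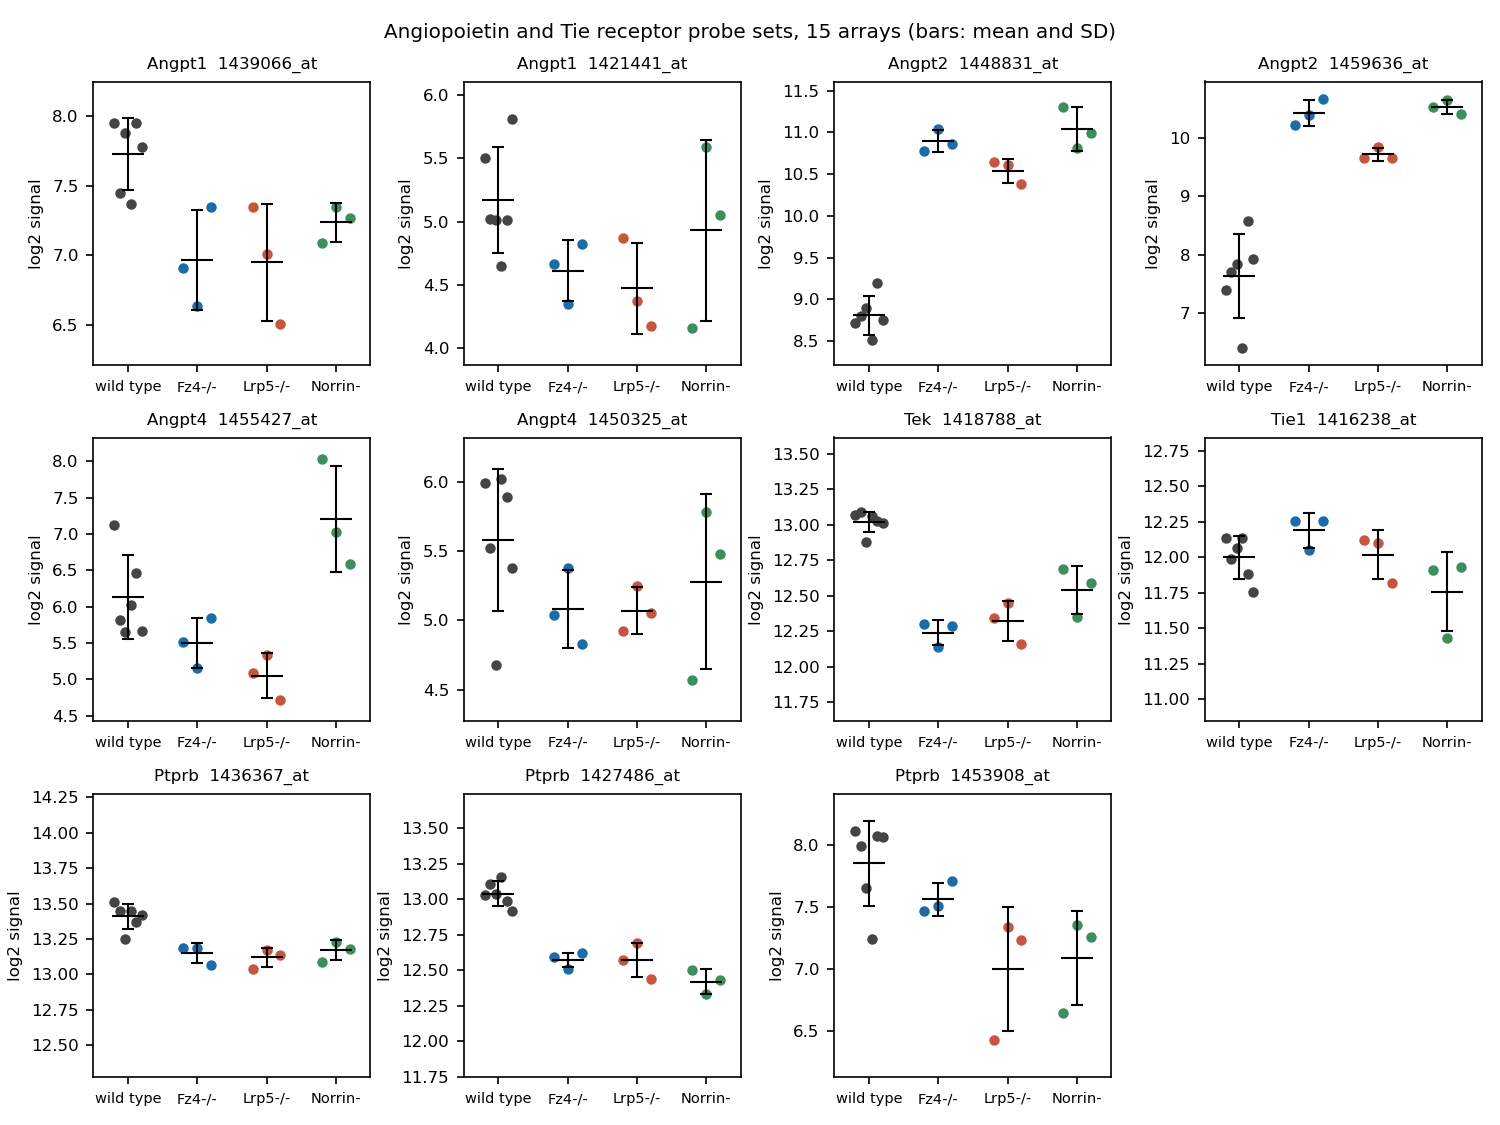
Log2 signal of the 11 probe sets on each of the 15 arrays, 1 panel per probe set with its own vertical range, which does not start at 0; points are arrays, the horizontal line is the group mean and the bars are 1 SD. Both Angpt2 panels show the 9 mutant arrays above all 6 wild-type arrays, and the Tek panel shows them below.

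Angpt2, the context-dependent ligand, carried the largest change of the axis. On probe set 1448831_at the wild-type arrays ran from 8.51 through a median of 8.78 to 9.20. The Fz4-/- arrays read 10.78, 11.04 and 10.86, the Lrp5-/- arrays 10.64, 10.61 and 10.38, and the Norrin- arrays 11.31, 10.81 and 10.99. All 9 mutant arrays lay above all 6 wild-type arrays, as did 3.36% of all probe sets. The group means were 8.81 ± 0.23 (SD, n = 6) in wild type, 10.90 ± 0.13 in Fz4-/-, 10.54 ± 0.14 in Lrp5-/- and 11.04 ± 0.26 in Norrin- (n = 3 each). These are rises of 4.23-fold in Fz4-/- (limma adjusted p = 6.92e-07), 3.31-fold in Lrp5-/- (adjusted p = 6.83e-06) and 4.66-fold in Norrin- (adjusted p = 3.68e-07). The mean rise was 2.01 ± 0.12 on the log2 scale (SE, 95% confidence interval 1.76 to 2.26).

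The other Angpt2 probe set, 1459636_at, gave the same picture with a wider spread in wild type. Its wild-type arrays ran from 6.40 through a median of 7.77 to 8.57, with array 4 lowest and array 5 highest. Its mutant arrays read 10.22, 10.40 and 10.67 in Fz4-/-, 9.65, 9.84 and 9.66 in Lrp5-/-, and 10.53, 10.65 and 10.41 in Norrin-. Again all mutant arrays lay above the wild-type range, as in 3.36% of all probe sets. The rises were 6.93-fold in Fz4-/-, 4.22-fold in Lrp5-/- and 7.43-fold in Norrin- (limma adjusted p = 4.27e-05, 0.000852 and 2.82e-05). Only 331 of all probe sets rose more than 1448831_at over the mean of the mutants, and 165 more than 1459636_at. Both probe sets stayed called in every mutant under every alternative in which they were fitted, including the fits without the 3 outlying arrays and with the actin gap or the sex-linked signals as covariates. Angpt2 lies within Mcph1, a gene of chromosome condensation, on chromosome 8, and the probe sets of that host gene were dim and did not pass (log2 differences of 0.10 and -0.07, adjusted p = 0.841 and 0.773).

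In order of mean level on both probe sets, Angpt2 was highest in Norrin-, then Fz4-/-, then Lrp5-/-, then wild type. The step from Fz4-/- to Norrin- was within the spread between arrays: 1448831_at differed by -0.14 in Fz4-/- relative to Norrin- (95% interval -0.53 to 0.25, adjusted p = 0.777). The step from Lrp5-/- to Fz4-/- did not pass either (0.35, interval -0.04 to 0.75, adjusted p = 0.598). Norrin- exceeded Lrp5-/- by 0.49 (interval 0.10 to 0.89, adjusted p = 0.108) on 1448831_at and by 0.82 (0.01 to 1.62, adjusted p = 0.183) on 1459636_at. The Lrp5-/- arrays lay below all arrays of both other mutants on both probe sets, as did 9.75% of all probe sets against Fz4-/- and 16.0% against Norrin-, but no pair of mutants passed the test.

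Angpt1, the activating ligand, was lower in the mutants on the probe set with the clearer signal. On 1439066_at the wild-type arrays ran from 7.37 through a median of 7.83 to 7.95. In Fz4-/- the arrays read 6.91, 6.64 and 7.35, the Lrp5-/- arrays 7.35, 7.01 and 6.51, and the Norrin- arrays 7.09, 7.35 and 7.27. All 9 mutant arrays were below all wild-type arrays, as in 2.60% of all probe sets, though the highest of each mutant fell just short of the lowest wild-type array. The difference was -0.76 ± 0.21 (log2, SE) in Fz4-/- (limma adjusted p = 0.0269) and -0.77 in Lrp5-/- (adjusted p = 0.0348). In Norrin- the difference was -0.49 and did not pass (adjusted p = 0.11), though it did without the 3 outlying arrays (-0.56, 0.0464) and after the arrays were quantile normalized again (-0.62, 0.0349). Over the mean of the mutants Angpt1 fell 1.6-fold (-0.68 ± 0.15, 95% interval -1.01 to -0.34, adjusted p = 0.00684).

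The Angpt1 calls in single mutants changed with the arrays used. The Fz4-/- call ended without Fz4-/- array 1 (adjusted p = 0.0983), Fz4-/- array 2 (0.14) or wild-type array 1 (0.0549), and with the sex-linked signals as covariates (0.0989). The Lrp5-/- call ended without any 1 of wild-type arrays 1, 3, 5 and 6 or Lrp5-/- arrays 2 and 3 (adjusted p = 0.0563 to 0.212), and without the 3 outlying arrays (0.217). Both also ended when Fz4-/- arrays were matched with wild-type arrays 1 to 3, and Lrp5-/- arrays with 4 to 6, by their sex-linked signals (0.0717 and 0.0986). The call over the mean of the mutants held with each array left out (adjusted p at most 0.0207), and ended with the replicate number as a block (0.0771). In that block wild-type arrays 1 to 3 alone serve as the control, because numbers 4 to 6 occur only in wild type. The other Angpt1 probe set, 1421441_at, was below the array's median signal on all 15 arrays, with groups that overlapped and no call (mean difference -0.49, adjusted p = 0.154).

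Angpt1 in retina is mainly a mural cell product, so the mural markers are given beside it. Over the mean of the mutants, 13.0% of all genes were called higher and 8.94% lower. Of 12 pericyte and smooth muscle markers, 3 were higher there (Anpep by 1.53, Abcc9 by 0.71 and Cspg4 by 0.57) and 2 lower (Vtn at -1.75 and Tagln at -0.54). Their mean log2 signal was 11.00 to 11.34 in wild type, 11.27 to 11.39 in Fz4-/-, 11.11 to 11.59 in Lrp5-/- and 11.07 to 11.25 in Norrin-, ranges that overlap. All 12 stood above the array median in wild type. In bulk RNA fewer cells of a type and less RNA per cell cannot be told apart, and the part of mural cells in the Angpt1 result was not tested.

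Angpt4 was dim, and the 2 probe sets did not move together. On 1455427_at the wild-type arrays ran from 5.65 through a median of 5.92 to 7.13. Signals were 5.51, 5.15 and 5.84 in Fz4-/-, 5.09, 5.34 and 4.72 in Lrp5-/-, and 8.03, 7.03 and 6.59 in Norrin-. Lrp5-/- lay below every wild-type array, as did 6.47% of all probe sets. Norrin- array 1 lay above every other array, and the other Norrin- arrays lay inside the wild-type range. Norrin- was 2.13-fold higher than wild type (1.09 ± 0.35, limma adjusted p = 0.04, 3 of 3 arrays above the wild-type mean). In Fz4-/- and Lrp5-/- the differences were -0.63 and -1.07 and did not pass (adjusted p = 0.287 and 0.0825). The Lrp5-/- difference did pass with the actin gap as a covariate (-1.03, 0.0452) and without Norrin- array 1 (-1.07, 0.0444). It also passed with the mean of all probe sets of the gene (-0.79, 0.0402), with only probe sets above the median, and with array weights.

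The Norrin- call for Angpt4 was not stable. It ended with the mean of all probe sets of the gene (0.39, limma adjusted p = 0.25) and after quantile normalization again (0.99, 0.0591). Array weights, the replicate number as a block, only the groups compared, and only wild-type arrays 4 and 5 as controls ended it too. It ended without any 1 of wild-type arrays 2, 3, 4 and 6, Fz4-/- array 1 and Norrin- arrays 1 and 2, with values of 0.68 to 1.18 and adjusted p up to 0.227. Norrin- array 1, with the highest Angpt4 value, is also the array with the actin gap of 2.92, and with that gap as a covariate the difference was 0.39 (adjusted p = 0.598). With the sex-linked signals as covariates it was 0.94 (adjusted p = 0.221), and without the 3 outlying arrays 1.07 (0.0766). The other probe set, 1450325_at, read 4.57, 5.78 and 5.48 in Norrin- against 4.68 to 6.02 in wild type, with differences of -0.50, -0.51 and -0.30 in Fz4-/-, Lrp5-/- and Norrin-, none called. Angpt4 1455427_at was above the array median on 6 arrays, 3 wild type and the 3 Norrin-.

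Tek, the signalling receptor, was lower in every mutant. Its single probe set, 1418788_at, ran from 12.88 through a median of 13.04 to 13.09 in wild type, among the brightest signals of each array. It read 12.30, 12.14 and 12.29 in Fz4-/-, 12.34, 12.45 and 12.16 in Lrp5-/-, and 12.69, 12.35 and 12.59 in Norrin-. All 9 mutant arrays were below all 6 wild-type arrays, as in 2.60% of all probe sets. The means were 13.02 ± 0.07 (SD, n = 6) in wild type, 12.24 ± 0.09 in Fz4-/-, 12.32 ± 0.14 in Lrp5-/- and 12.54 ± 0.17 in Norrin- (n = 3 each). Tek was therefore 1.72-fold lower in Fz4-/- (limma adjusted p = 0.000427), 1.63-fold lower in Lrp5-/- (adjusted p = 0.00143) and 1.39-fold lower in Norrin- (adjusted p = 0.0105). Over the mean of the mutants the difference was -0.65 ± 0.09 (95% interval -0.84 to -0.47).

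The Fz4-/- call and the call over the mean of the mutants for Tek held under every alternative run. The Lrp5-/- call ended without the 3 outlying arrays, which leaves 1 Lrp5-/- array (-0.57, adjusted p = 0.186). The Norrin- call ended without Norrin- array 2 (-0.38, adjusted p = 0.0539), with the sex-linked signals as covariates (-0.53, 0.0519), and with only wild-type arrays 4 and 5, which like Norrin- carried male signal alone, as controls (-0.50, adjusted p = 0.0954). Among the mutants Tek was lowest in Fz4-/- and highest in Norrin-, and neither that difference (-0.30, adjusted p = 0.288) nor the steps through Lrp5-/- passed.

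Tie1, the partner receptor, showed no called change in any comparison. Its probe set 1416238_at ran from 11.76 through a median of 12.03 to 12.14 in wild type. The Fz4-/- arrays read 12.26, 12.05 and 12.26, the Lrp5-/- arrays 12.12, 12.10 and 11.82, and the Norrin- arrays 11.91, 11.43 and 11.93. Only 2 Fz4-/- arrays rose above the wild-type range and 1 Norrin- array, array 2, fell below it. The differences from wild type were 0.19 in Fz4-/- (95% interval -0.12 to 0.51), 0.02 in Lrp5-/- (-0.29 to 0.33) and -0.24 in Norrin- (-0.55 to 0.07), with limma adjusted p of 0.449, 0.982 and 0.266. Over the mean of the mutants the interval, -0.24 to 0.22, does not reach the difference of -0.65 seen for Tek.

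The receptor genes Tek and Tie1 both lie on chromosome 4 in mouse. The start regions of Tie1, which did not pass, and of Angpt4, the ligand that differed most between mutants, are shown to let a reader compare their letters. They are RefSeq sequences of build GRCm38.p6, the 250 bases before each annotated start, read 5′ to 3′ on the gene's strand. Capitals mark GGAA or its reverse complement TTCC, the core that Ets factors bind.
Tie1, chr4:118489850-118490099, minus strand: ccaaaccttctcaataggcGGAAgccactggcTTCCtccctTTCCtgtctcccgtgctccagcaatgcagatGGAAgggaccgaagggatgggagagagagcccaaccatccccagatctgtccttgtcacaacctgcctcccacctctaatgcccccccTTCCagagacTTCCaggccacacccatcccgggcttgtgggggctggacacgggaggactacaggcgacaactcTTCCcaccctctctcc
Angpt4, chr2:151910957-151911206, plus strand: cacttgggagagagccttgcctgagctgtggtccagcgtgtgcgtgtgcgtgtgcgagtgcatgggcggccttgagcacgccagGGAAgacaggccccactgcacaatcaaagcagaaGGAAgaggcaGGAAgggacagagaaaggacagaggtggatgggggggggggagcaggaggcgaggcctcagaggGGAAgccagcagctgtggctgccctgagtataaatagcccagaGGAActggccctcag

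The core occurred 7 times in the Tie1 window, 5 times in that of Angpt4 and 2 times in that of Tek, against a median of 3 over 32851 promoters, of which 93.4% hold at least 1. The Tek window ends at a start that lies 203 bases inside the gene's annotated span. Much of that window is thus within the gene, and it is not printed. Longer motifs were searched first on both strands: GTAAACA for forkhead factors (in 3.17% of all windows), CTTTGAA for Tcf/Lef (4.46%), AGATAA for Gata (9.99%) and CCGGAAG for Ets (6.91%). None of the 4 matched in any of the 3 windows, which says only that these letters are not there, and the core was counted after that. The GC content was 51.2% for Tek, 60.4% for Tie1 and 62.4% for Angpt4, against 53.2% over all promoters. These arrays measured neither binding nor chromatin.

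Ptprb, the phosphatase that acts on Tek and VE-cadherin, was lower in the mutants on all 3 probe sets, to different extents. On 1427486_at the wild-type arrays ran from 12.92 through a median of 13.04 to 13.16. The Fz4-/- arrays read 12.59, 12.51 and 12.62, the Lrp5-/- arrays 12.57, 12.69 and 12.44, and the Norrin- arrays 12.50, 12.33 and 12.43. All mutant arrays lay below the wild-type range, as in 2.60% of all probe sets. Ptprb was 1.38-fold lower in Fz4-/- (limma adjusted p = 0.0106), 1.39-fold lower in Lrp5-/- (0.0137) and 1.54-fold lower in Norrin- (0.0011), and 1.44-fold lower over the mean of the mutants (-0.52 ± 0.08, adjusted p = 0.000343). The Norrin- call and the call over the mean held under every alternative, whereas the Fz4-/- call ended without Fz4-/- array 2 (adjusted p = 0.0551). The Lrp5-/- call ended without Lrp5-/- array 3 (0.0928) or the 3 outlying arrays (-0.33, adjusted p = 0.521), and with the matching by sex-linked signals (0.0561).

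The brightest Ptprb probe set, 1436367_at, moved least. It ran from 13.25 through a median of 13.43 to 13.51 in wild type and read 13.19, 13.19 and 13.07 in Fz4-/-, 13.04, 13.17 and 13.14 in Lrp5-/-, and 13.09, 13.23 and 13.18 in Norrin-. Every mutant array was below every wild-type array, as in 2.60% of all probe sets, the nearest by a small step from Norrin- array 2 to wild-type array 3. The differences of -0.26, -0.29 and -0.24 in Fz4-/-, Lrp5-/- and Norrin- did not pass singly (limma adjusted p = 0.14, 0.13 and 0.122). Their mean did (-0.26 ± 0.08, adjusted p = 0.032), and lost the call without any 1 of wild-type arrays 1, 2, 4 and 6, Fz4-/- array 3 and Lrp5-/- array 3 (adjusted p up to 0.0763), without the 3 outlying arrays (0.134) and with the sex-linked signals as covariates (0.0709). Quantile normalization again and the replicate number as a block ended that call too. The signal of 1436367_at exceeded that of 99.5% or more of all probe sets on every array.

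The third Ptprb probe set, 1453908_at, was dimmer and more scattered. Wild type ran from 7.24 through a median of 8.03 to 8.11, with array 4 lowest. The Fz4-/- arrays read 7.47, 7.51 and 7.71, the Lrp5-/- arrays 6.43, 7.34 and 7.23, and the Norrin- arrays 6.65, 7.35 and 7.26, so that each mutant overlapped wild type. It was called in Lrp5-/- (-0.85, limma adjusted p = 0.0446), in Norrin- (-0.77, 0.037) and over the mean (-0.64, 0.0234), and not in Fz4-/- (-0.29, 0.489). The Lrp5-/- call ended with 10 of the 15 arrays left out in turn (adjusted p up to 0.263), the Norrin- call with 6 (up to 0.187) and the call over the mean with 4, wild-type arrays 1, 2, 5 and 6 (up to 0.0592). Without the 3 outlying arrays the Lrp5-/- call ended too (-0.64, adjusted p = 0.381). The Norrin- value was -0.39 with the actin gap as a covariate (adjusted p = 0.475), and the sex-linked covariates ended all 3 calls (0.138, 0.267 and 0.0736).

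**Figure D2:**
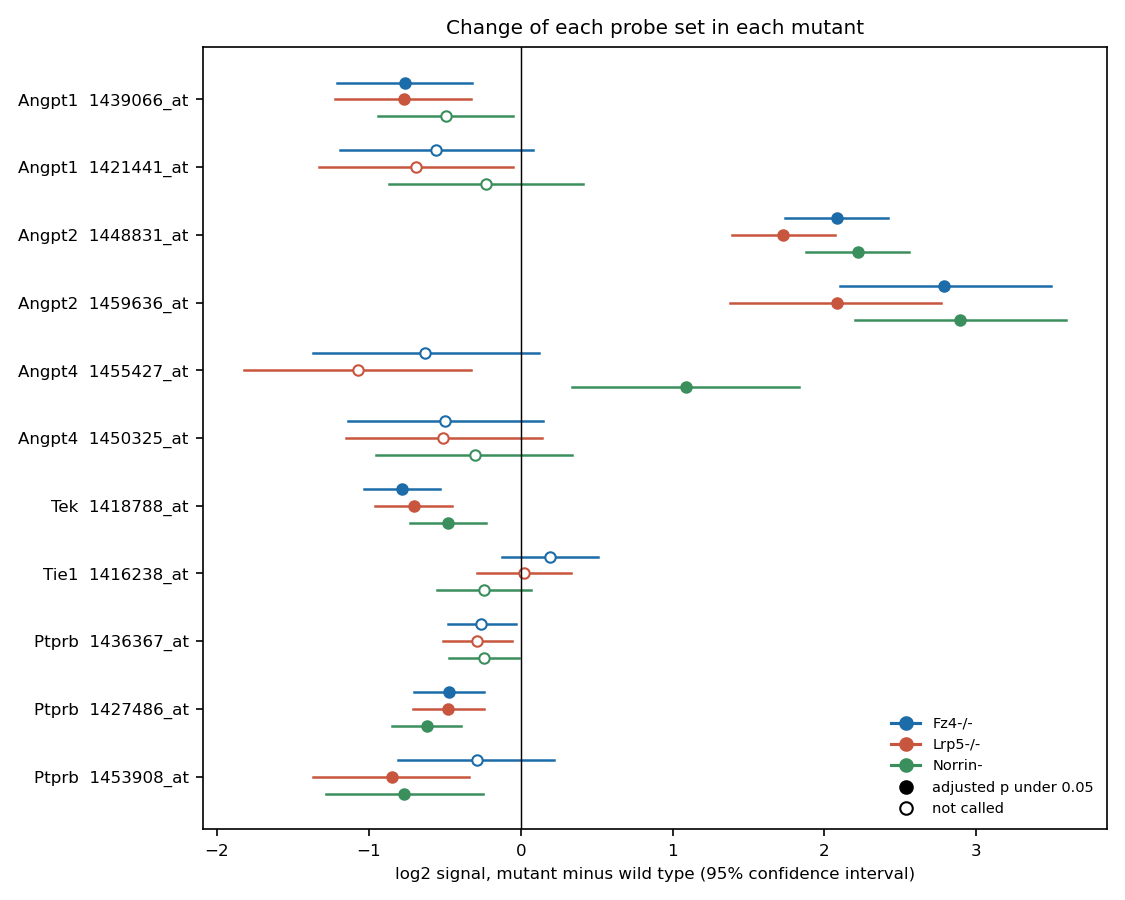
Difference in log2 signal between each mutant and wild type for the 11 probe sets, with 95% confidence intervals as lines; colours are the mutants and filled points have an adjusted p under 0.05. Both Angpt2 probe sets lie between 1.73 and 2.89 in every mutant, Tek between -0.78 and -0.48, and the Tie1 intervals all cross 0.

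Between mutants, Angpt4 gave the only called member. None of the 11 probe sets was called between Fz4-/- and Lrp5-/-, where limma called 0.140% of all probe sets, nor between Fz4-/- and Norrin-, where it called 1.21%. Between Norrin- and Lrp5-/-, 1 of 11 was called, on the higher side, against 7.44% of all (5.27% higher). This was Angpt4 1455427_at, 4.48-fold higher in Norrin- (2.16 ± 0.40, 95% interval 1.30 to 3.03, adjusted p = 0.00968). All 3 Norrin- arrays lay above all 3 Lrp5-/- arrays, as in 16.0% of all probe sets. The call held with each array left out (adjusted p at most 0.0437), and ended with only those groups in the fit (adjusted p = 0.0842), with the actin gap as a covariate (1.42, 0.142) and without the 3 outlying arrays (1.87, adjusted p = 0.34). The same probe set was -1.72 in Fz4-/- relative to Norrin- and did not pass (adjusted p = 0.0542).

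Array by array, once each group's mean was removed, Pearson r over the 15 arrays between members, each by its brightest probe set, ran from -0.52 to 0.70. It was highest for Tek and Tie1 (0.70) and for Angpt4 and Tek (0.54), and lowest for Angpt2 and Ptprb (-0.52) and for Angpt1 and Ptprb (-0.39). For Angpt2 and Tek it was 0.27 and for Tek and Ptprb 0.04. These are descriptions of 15 arrays that share normalization. With the group means left in, the genes whose pattern was most like that of Angpt2 among 18192 ranked genes were Sez6l2 (r = 0.989), Tmem47 (0.987) and Tgfbi (0.986), and 435 genes had r above 0.9. For Tek they were Palm (0.982), Inpp5f (0.978) and Ccm2l (0.975), with 170 genes above 0.9, and for Ptprb Cbx5 (0.970), Extl3 (0.966) and Dip2b (0.956), with 77. Angpt1 was most like Mapk14 (0.879), Sntg2 (0.874) and Nat8f2 (0.870), Angpt4 most like Pgap4 (0.952), Zfp952 (0.930) and Maf1 (0.920), and Tie1 most like Pkm (0.849), Prpf8 (0.847) and Fam133b (0.799). No gene exceeded 0.9 for Angpt1 or Tie1, and the step between wild type and mutants is part of every one of these values.

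Downstream of Tek, the adaptor and PI3K-Akt-Foxo genes were split. Of 21 measured, 4 rose and 4 fell over the mean of the mutants, where limma called 13.0% of all genes higher and 8.94% lower, each gene by its brightest probe set. The list median was 0.04 against -0.01 for all genes. Grb14, an adaptor that binds Tek and the insulin receptor, fell by 3.57 ± 0.16, from a mean of 9.72 in wild type to 6.04, 6.46 and 5.95 in Fz4-/-, Lrp5-/- and Norrin- (adjusted p = 1.37e-09), though 1 of its 2 probe sets carried the call. The related adaptor Grb7 fell by 1.82 ± 0.18. Pik3r1, a regulatory subunit of PI3K, rose by 0.91 ± 0.12, and Shc1, another adaptor, by 0.66 ± 0.09. Without the 3 outlying arrays 2 members of the list were called higher in place of 4.

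Foxo1 itself, which switches Angpt2 on, was 0.52 ± 0.16 higher over the mean of the mutants (limma adjusted p = 0.0343, 2 of its 4 probe sets called) and was not called in any single mutant, with 0.54, 0.53 and 0.47 in Fz4-/-, Lrp5-/- and Norrin-. Foxo4 was 0.46 lower (-0.46, adjusted p = 0.00506), and Foxo3 differed by -0.18 (adjusted p = 0.309). Transcript level does not show where a Foxo protein lies in the cell. Of 19 other genes described as Foxo targets, 4 were called higher and 8 lower over the mean of the mutants, against 13.0% and 8.94% of all genes. The list median was 0.11. Esm1, an endothelial proteoglycan core, rose by 6.82 ± 0.25, from 4.65 in wild type to 11.60, 11.60 and 11.23, and Bcl2l11, a promoter of cell death, by 0.95 ± 0.19. Pik3ip1, an inhibitor of PI3K, fell by 2.51 ± 0.22 and Sesn1, a stress-induced inhibitor of growth signalling, by 1.59 ± 0.13. The list thus moved in both directions, and without the 3 outlying arrays 5 of its members were called lower in place of 8.

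Genes of the Weibel-Palade body, the granule that stores Angpt2, did not rise with it as a group. Of 17 measured, 3 were higher and 4 lower over the mean of the mutants, against 13.0% and 8.94% of all genes. The list median was -0.27. Selp, the leukocyte adhesion receptor held in the granule, rose by 5.01 ± 0.38, from 7.18 in wild type to 12.06, 12.75 and 11.77 in Fz4-/-, Lrp5-/- and Norrin-, and Rab3b, a GTPase of granule release, by 1.85 ± 0.18. Vwf, whose protein builds the granule, differed by -0.32 ± 0.11 and did not pass (limma adjusted p = 0.057). Myrip, which ties granules to actin, fell by 1.96 ± 0.19 and Edn1, a vasoconstrictor also stored there, by 1.18 ± 0.18.

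The angiopoietin-like ligands are secreted proteins of related structure that do not act through Tek. Over the mean of the mutants 1 of 4 measured was called, on the lower side, against 8.94% of all genes. Angptl4, an inhibitor of lipoprotein lipase, fell by 3.03 ± 0.17, from 10.44 in wild type to 7.46, 6.78 and 7.99 (limma adjusted p = 1.25e-08). Among 15 other binding partners and sheddases of the receptors, 8 were higher and none lower over the mean of the mutants. The shares of all genes there were 13.0% and 8.94%, and the list median was 0.32. In Fz4-/- 6 were higher, in Lrp5-/- 5 and in Norrin- 8, where 9.50%, 4.74% and 15.2% of all genes were called higher, again with none lower, and 7 were higher over the mean without the 3 outlying arrays. Itgb3, an integrin chain, rose by 2.90 ± 0.32 from 7.51 in wild type. Mmp14, a membrane protease reported to cut Tek, rose by 2.39 ± 0.19 from 6.82, with all 3 of its probe sets called.

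The other receptor-type tyrosine phosphatases did not follow Ptprb as a group. Of 16 measured, 4 rose and 5 fell over the mean of the mutants, against 13.0% and 8.94% of all genes. The list median was -0.06. Ptpre rose by 1.65 ± 0.20 and Ptprk by 0.86 ± 0.10, while Ptprr, which acts on MAP kinases, fell by 1.91 ± 0.14 and Ptprj, which is also called DEP-1, by 0.91 ± 0.20. Of 16 transcription factors reported at Angpt2, Tek or Tie1, 3 rose and 4 fell, against the same shares of all genes. Their median was 0.01. Foxc2, a forkhead factor reported to act on Angpt2, rose by 1.12 ± 0.13, and Foxo1 has been given above. Klf2, a flow-induced factor that holds Angpt2 down, fell by 0.97 ± 0.14, and Gata2, an endothelial regulator, by 0.67 ± 0.10. Without the 3 outlying arrays 1 of these factors was called higher in place of 3.

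**Figure D3:**
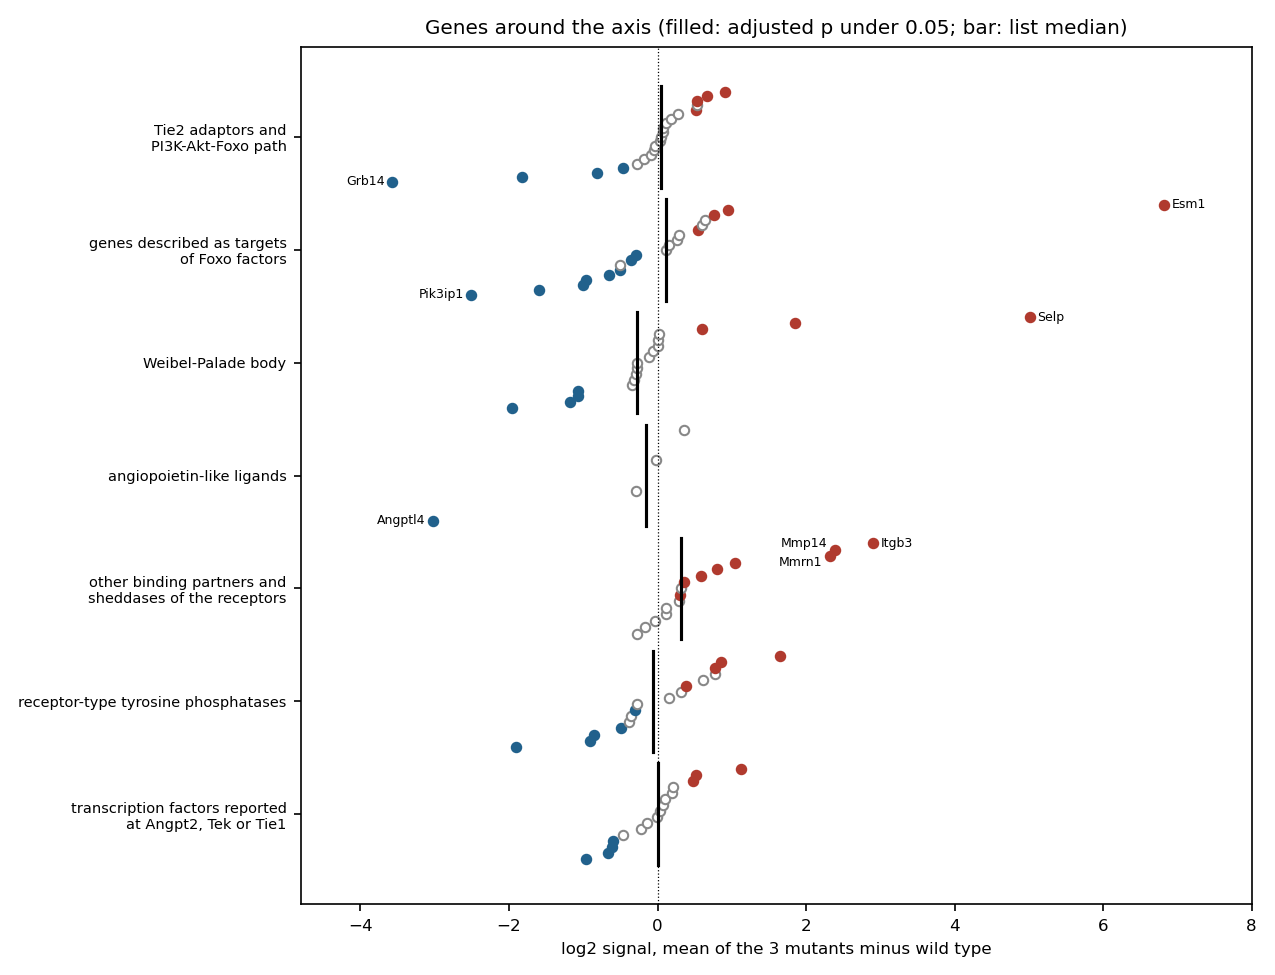
Difference in log2 signal between the mean of the 3 mutants and wild type for the genes of 7 lists around the axis, 1 point per gene; filled points have an adjusted p under 0.05, red higher and blue lower, and the bar is the list median. List medians lie between -0.27 and 0.32, with Esm1 at 6.82 and Grb14 at -3.57 as the farthest points.

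The endothelial markers gave clear signal, and so did those of some other cell types. All 14 endothelial markers lay above the array median in wild type. So did all 12 pericyte and smooth muscle markers, all 9 Müller glia and astrocyte markers and 11 of 13 macrophage markers. This count therefore does not set endothelium apart. Over the mean of the mutants 2 of the 14 endothelial markers were higher (Emcn by 0.82 and Kdr by 0.80) and 3 lower (Cldn5 at -1.38, Flt1 at -0.36 and Esam at -0.29). Of all genes, 13.0% were called higher and 8.94% lower there. The mean log2 signal of the list was 11.71 to 11.90 in wild type, 11.89 to 11.93 in Fz4-/-, 11.74 to 11.87 in Lrp5-/- and 11.58 to 11.89 in Norrin-. The list mean averages these rises and falls. The part of endothelial cell content in the lower Tek and Ptprb signals was not tested.

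Macrophage markers moved in the same direction as Angpt2. Of 13 markers 6 were higher and none lower over the mean of the mutants. Of all genes, 13.0% were called higher and 8.94% lower there, and these shares apply to each list below. The mean log2 signal of the macrophage list was 7.85 to 9.28 in wild type against 9.43 to 10.00 in Fz4-/-, 9.03 to 9.60 in Lrp5-/- and 9.43 to 10.04 in Norrin-. Lymphatic markers had 2 of 5 higher, Prox1 and Lyve1, the latter also a macrophage gene, with means of 7.71 to 8.44 in wild type and 8.52 to 9.47 in the mutants. Platelet markers had 2 of 8 higher, Pf4 by 2.00 and Gp1bb by 0.65 (2.09 in Norrin-). Their means were 5.14 to 5.53 in wild type, 5.37 to 5.63 in Fz4-/-, 5.16 to 5.77 in Lrp5-/- and 5.81 to 6.30 in Norrin-. Rod markers had 1 of 8 higher, and 2 of the 8 lay above the array median in wild type. Their means were 5.31 to 6.25 in wild type, 5.67 to 6.68 in Fz4-/-, 6.28 to 7.14 in Lrp5-/- and 5.14 to 6.76 in Norrin-. Müller glia and astrocyte markers had 1 higher and 1 lower of 9, other neuronal markers 1 (Thy1 by 4.27) and 1 (Lhx1 at -0.66) of 12. Red cell markers had 0 higher and 2 lower of 4, Alas2 at -1.87 and Hbb-b2 at -1.59. The red cell means were 5.98 to 6.66 in wild type, 4.66 to 5.09 in Fz4-/-, 5.44 to 5.69 in Lrp5-/- and 5.56 to 5.97 in Norrin-. The part of these cells in the member results was not tested.

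**Figure D4:**
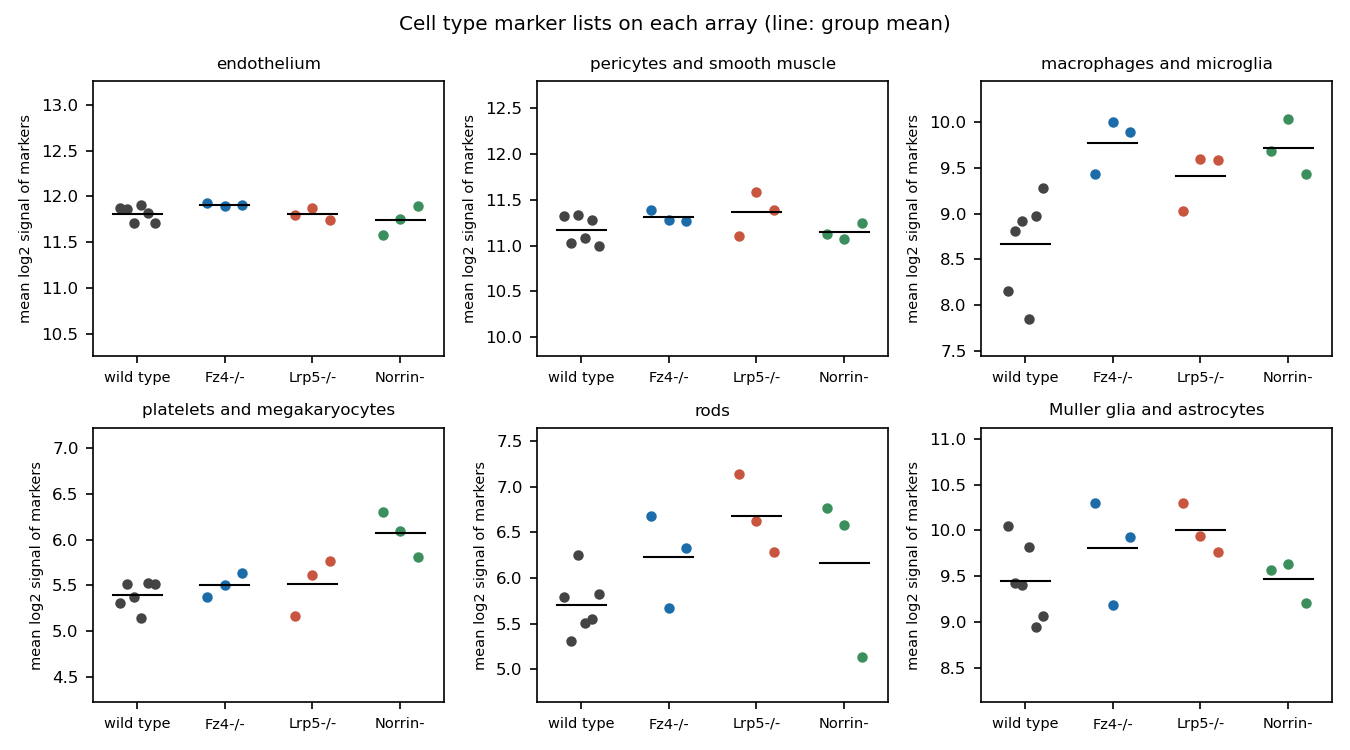
Mean log2 signal of 6 cell type marker lists on each of the 15 arrays, 1 panel per list with its own vertical range; points are arrays and lines are group means. The endothelial list stays within 11.58 to 11.93 on all arrays, and macrophage means run from 7.85 to 9.28 in wild type and from 9.03 to 10.04 in the mutants.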

How the data were processed

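The values are the log2 signals that the authors deposited for 45101 probe sets on 15 arrays. RMA, the background correction, normalization and summary method named by the submitters' processing notes, produced them. Its version, and whether all arrays were normalized together, is not given in the sources used here. After the 64 array controls were left out, the table was used with no further scaling or filter on dim probe sets. A linear model with a mean for each of the 4 groups was fitted to all 15 arrays with limma 3.58.1 in R 4.3.3 (eBayes at its defaults, 7 contrasts), with Benjamini-Hochberg adjustment over 45037 probe sets and a threshold of 0.05. Intervals are unadjusted 95% confidence intervals. As every array holds a pool of mice, the p-values describe variation among pools, and the number of arrays limits the precision. In gene counts the probe set with the highest mean stood for a gene (18193 genes with probe sets of 1 symbol).

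Gene symbols came from the probe table of the platform. Named genes were all members, up to 2 rises and 2 falls per list among called genes, Foxo, Weibel-Palade and phosphatase genes that bear on a member, the markers, and the 3 genes most correlated with each member. Mcph1 and the genes that check the labels and arrays were named beyond this. The members and lists were chosen with earlier results of these data known. The fit was tested on simulated data. Same-numbered arrays of different groups showed no common deviation over all pairs (18 pairs, r of -0.28 to 0.38, 12 at or below 0.1), so numbers were not used as pairs. The highest value was for wild type and Fz4-/- array 3, with 0.22 and 0.05 for arrays 1 and 2 of these groups. Lrp5-/- arrays were not compared in this way with wild-type arrays 4 to 6, so the check does not cover the matching by sex-linked signals. Promoter sequences came from RefSeq (3 of 6 members present).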

Additional observations from a re-analysis of the deposited data

Results flagged for a closer look

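Angpt4 probe set 1455427_at differed between Norrin- and Lrp5-/- by 2.16 on the log2 scale (limma adjusted p = 0.00968). It stands here because the difference between these mutants was itself tested and passed, while Norrin- lay above wild type and Lrp5-/- below it. The call ended with the actin gap as a covariate and with only the groups compared. The other Angpt4 probe set, 1450325_at, did not show this difference (0.20, limma adjusted p = 0.738), and there the means of both mutants lay below wild type. Both probe sets were dim.

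The same Angpt4 probe set was at -1.72 in Fz4-/- relative to Norrin-, with every Norrin- array above and every Fz4-/- array below the wild-type mean. That difference did not pass (limma adjusted p = 0.0542). Tie1 was 0.43 higher in Fz4-/- than in Norrin- (limma adjusted p = 0.218), with all 3 Fz4-/- arrays above and all 3 Norrin- arrays below the wild-type mean, and did not pass either. No member had a single wild-type array set apart from the other 5 in the 11 groups checked.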

How the results depend on the processing

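Of 25 called member values, 688 values were computed under alternatives: 599 kept their call, 89 lost it and none changed sign. Of 34 uncalled values, 27 of 932 alternative values were called. Counting each gene by its brightest probe set, the members called were 3 in Fz4-/-, 3 in Lrp5-/-, 3 in Norrin-, 4 over the mean of the mutants, and 0, 0 and 1 for Fz4-/- against Lrp5-/-, Fz4-/- against Norrin- and Norrin- against Lrp5-/-. Lrp5-/- gave 5 with the mean of all probe sets and with array weights, and 1 without the 3 outlying arrays (chosen after seeing the data). Norrin- gave 1 with Xist and Eif2s3y as covariates and 1 with wild-type arrays 4 and 5 as the only control (also chosen afterwards). Fz4-/- against Norrin- gave 1 with 1 probe set per gene, with only probe sets above the median, with trend and robust, and with array weights. Norrin- against Lrp5-/- gave 2 with array weights, and 0 with only the groups compared, with the actin gap as covariate and without the 3 arrays. With each array left out, counts ran from 2 to 3 in Fz4-/-, 2 to 4 in Lrp5-/-, 1 to 3 in Norrin- (1 without Norrin- array 2), 3 to 4 over the mean, 0 to 1 for Fz4-/- against Norrin- (1 without wild-type array 1), and stayed at 0 and 1 for the other pairs. Leaving out the 3 arrays also lowered the calls over all probe sets, from 3465 to 1044 in Lrp5-/- and from 3352 to 14 for Norrin- against Lrp5-/-, with 1 Lrp5-/- array left. In the lists, it gave 2 called higher among adaptors, 5 lower among Foxo targets and 1 higher among transcription factors.

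Some uncalled values changed sign, and not all of them were near 0. Tie1 in Lrp5-/- (0.02) was -0.05 with array weights and -0.05 with the replicate block, and -0.03 to 0.11 with each array left out. Tie1 over the mean (-0.01) was 0.05 without the 3 arrays and -0.06 to 0.05 with each left out. For Fz4-/- against Norrin-, Angpt2 1448831_at was 0.02 with the sex-linked covariates and 0.19 with the actin gap, and 1459636_at was 0.06 with the former and -0.22 to 0.01 with each array left out. In Norrin-, Angpt1 1421441_at (-0.23) was 0.39 with the actin gap, 0.10 with wild-type arrays 4 and 5 only, and -0.56 to 0.15 with each left out. Angpt4 1450325_at in Norrin- (-0.30) was 0.23 with the actin gap and -0.55 to 0.05 with each left out. The causes were not tested.

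With the replicate number as a block, members called fell to 1 in Norrin- and 2 over the mean of the mutants, and all probe sets called over the mean fell from 7977 to 3899. Numbers 4 to 6 occur only in wild type, so in this fit wild-type arrays 1 to 3 alone serve as the control. The lower counts therefore do not measure an effect of the replicate number. The replicate block also ended the calls of Angpt1 (limma adjusted p = 0.118 in Fz4-/-, 0.137 in Lrp5-/- and 0.0771 over the mean), of Tek in Norrin- (0.0928) and of Ptprb 1427486_at in Fz4-/- and Lrp5-/- (0.0846 and 0.1). It ended those of Ptprb 1453908_at in Lrp5-/-, in Norrin- and over the mean as well. Ptprb 1436367_at over the mean and Angpt4 1455427_at in Norrin- lost their calls too. A block that matched Fz4-/- arrays with wild-type arrays 1 to 3 and Lrp5-/- arrays with 4 to 6 by their sex-linked signals, chosen after seeing the data, ended both Angpt1 calls (0.0717 and 0.0986) and the Lrp5-/- call of Ptprb 1427486_at (0.0561). Dim probe sets, both of Angpt4 and 1 of Angpt1, limit what these arrays show.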
